A study of Mus musculus with 4 samples.

Results

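The 40 genes described here belong to the cellular response to low oxygen and to glycolysis. They were picked by symbol, and all 40 were found once in the feature list of both reactions, which names 36601 human genes. The cells were human immune cells sorted for human CD45 from MDA-MB-231 tumors. MDA-MB-231 is a human triple-negative breast cancer cell line, and the tumors grew in the mammary fat pad of MISTRG mice, which carry human cytokine genes such as those for M-CSF, GM-CSF and IL-3 and had received human CD34+ cells from fetal liver as pups. Of 14 such mice, 7 were untreated and 7 drank the small-molecule drug maraviroc at 300 mg per l for 10 days starting on day 21, with tumor collection on day 31. All mice therefore carried the same tumor line and a human immune system, and the labels do not tell which mice shared a donor of CD34+ cells. Cells of each mouse were marked with a hashtag antibody and pooled into 2 droplet reactions, with 4 untreated and 3 maraviroc mice in reaction 1 and 3 untreated and 4 maraviroc mice in reaction 2.

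Cells short of oxygen stabilize the transcription factor subunits HIF1A and EPAS1, which prolyl hydroxylases such as EGLN1 and EGLN3 otherwise mark for breakdown. The stabilized factors raise glucose uptake, every step of glycolysis and lactate export, slow the entry of pyruvate into mitochondria, and induce secreted factors such as VEGFA. HIF1A is controlled mainly at the level of its protein, so its mRNA is a poor gauge of the response, and many of its targets are used as transcript markers of poorly perfused tumor regions. Macrophages are known to gather in such regions and to express these targets there.

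The tables held raw counts of unique molecular identifiers (UMIs). The 29120 barcodes of reaction 1 were shallower (median 2764 UMIs) than the 13582 of reaction 2 (median 10204.5), and 136 barcode sequences occurred in both. After filtering and removal of hashtag doublets and of cells without a hashtag, 11917 cells of reaction 1 and 7954 of reaction 2 remained. Of the 27645 barcodes of reaction 1 that passed the filters, 10174 were removed as hashtag doublets and 5554 for lack of a hashtag. In reaction 2 these were 1961 and 246 of 10161. They were gated on UMIs of marker genes, none of which is among the 40, into 6271 macrophages (137 to 892 per mouse), 2187 monocytes (74 to 224), 253 dendritic cells (6 to 34), 3462 T cells (14 to 621), 1062 NK cells (41 to 113) and 112 tumor cells (2 to 16). A further 547 cells (2.75%) were gated as B, plasmacytoid dendritic or mast cells and not used. Another 30.1% of the kept cells were left out, as they lacked markers or exceeded a ceiling for another lineage. The tumor cells were gated on UMIs of keratins, caveolin 1 and TM4SF1 and on the absence of any UMI of PTPRC, the gene of CD45. Both traits were therefore set by the gate. The sort itself was for CD45. Counts were summed over the cells of a class in each mouse and scaled to the total UMIs of that class and mouse (CPM). Such a sum does not tell apart fewer expressing cells and less RNA in each. The mice, not the cells, were the replicates, and a class was used in the mice that had at least 10 of its cells, which left all 14 mice for macrophages, monocytes, T cells and NK cells, 9 for dendritic cells and 5 for tumor cells. Several glycolysis genes have processed pseudogenes that can share reads with them, and ALDOA shares its locus with the readthrough transcript AC093512.2, so their levels are less certain than those of the other genes.

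SLC2A1, the widely expressed glucose transporter GLUT1, was low in the immune classes, with means between 17.6 and 25.5 CPM. Its level was 19.8 ± 5.36 CPM in macrophages (SD, n = 14), 25.5 ± 11.8 in monocytes, 18.5 ± 6.53 in T cells and 21.9 ± 7.06 in NK cells, and 17.6 ± 10.2 in dendritic cells (n = 9). In tumor cells the 5 mice had 44.6, 75.9, 119, 244 and 267 CPM. The lowest of these was above the highest macrophage value, 29.3 CPM. SLC2A3, the high-affinity transporter GLUT3, followed another order, with 1525 ± 118 CPM in monocytes, 1181 ± 203 in macrophages and between 382 and 510 CPM on average in the other classes.

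HK2, the inducible hexokinase that traps glucose in the cell, was highest in macrophages and monocytes. It stood at 211 ± 47.7 CPM in macrophages and 244 ± 69.0 in monocytes, but at 30.5 ± 16.3 in dendritic cells, 11.6 ± 4.96 in T cells and 14.3 ± 10.2 in NK cells. In tumor cells the mean was 92.8 ± 64.5 CPM (n = 5). The macrophage values of the 14 mice ran from 148 to 321 CPM with a median of 199, and the highest T cell value was 23.6, so the classes did not overlap. HK1, the constitutive hexokinase, varied far less, from 71.5 ± 21.03 CPM in dendritic cells to 147 ± 18.3 in macrophages. The enzymes of the lower part of the pathway were abundant everywhere. GAPDH, which oxidizes glyceraldehyde 3-phosphate, had 1954 ± 386 CPM in macrophages, 2106 ± 369 in monocytes, 2569 ± 581 in T cells and 3658 ± 1051 in tumor cells. LDHA, which turns pyruvate into lactate, had 438 ± 63.0 CPM in macrophages, 563 ± 76.5 in monocytes, 538 ± 62.6 in T cells and 1286 ± 396 in tumor cells.

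HIF1A mRNA was at 1289 ± 224 CPM in macrophages and 1037 ± 132 in monocytes, above the 410 ± 121 of dendritic cells, 421 ± 79.0 of NK cells and 273 ± 34.3 of T cells. EPAS1, the gene of HIF-2 alpha, had the same order among the myeloid classes, with 94.0 ± 18.1 CPM in macrophages, 66.1 ± 23.3 in monocytes and 43.0 ± 26.6 in dendritic cells, and was at 6.11 ± 2.78 in T cells. ADM, the gene of the vasodilator peptide adrenomedullin, had the largest differences between macrophages and T cells and between macrophages and dendritic cells of all tested members. The lowest, median and highest macrophage values were 41.9, 50.8 and 75.8 CPM, those of monocytes 23.7, 49.5 and 90.3, and those of T cells 0, 1.42 and 5.40. VEGFA, the vascular growth factor, had 130 ± 24.3 CPM in macrophages, 203 ± 39.2 in monocytes, 76.8 ± 35.7 in dendritic cells and under 10 CPM on average in T and NK cells. BNIP3, a receptor for the removal of mitochondria, was at 81.3 ± 19.1 CPM in macrophages and 17.0 ± 6.88 in T cells, and the 5 tumor cell values were 290, 304, 318, 324 and 777 CPM. The acid-handling carbonic anhydrases were nearly absent: CA9, a classical marker of tumor hypoxia, had 6 UMIs in all macrophages and 7 in all tumor cells, and CA12 had 48 and 30. Neither passed the low-count filter of the main tests, in which at most 38 of the 40 genes were tested.

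**Figure D1:**
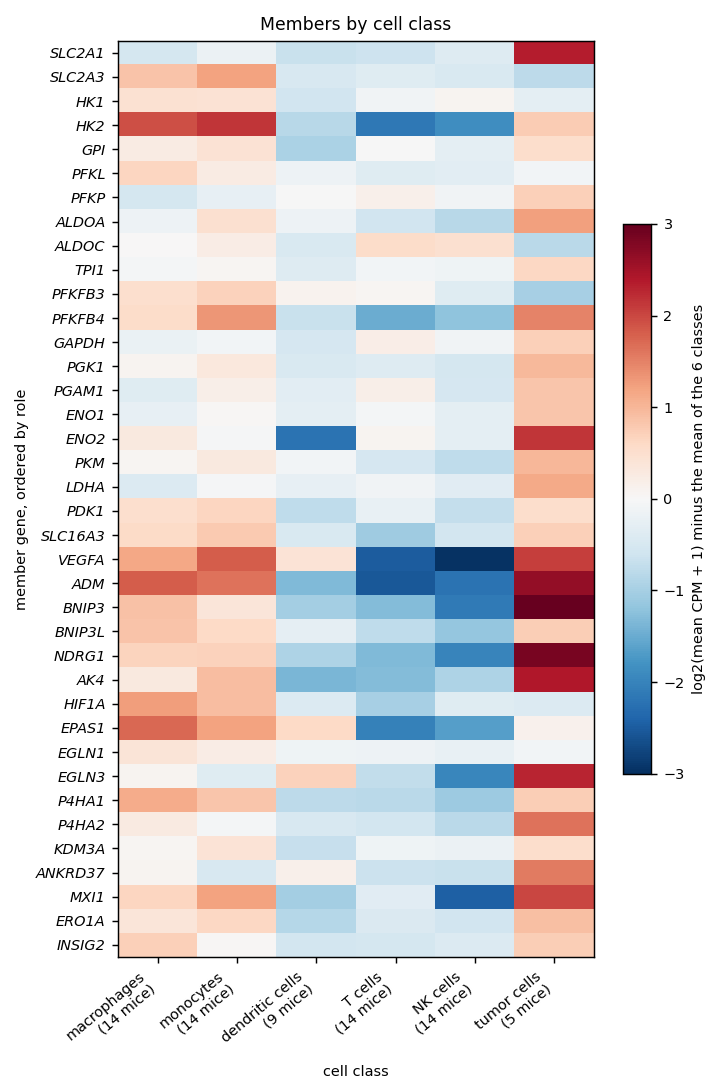
Heat map of the 38 members other than CA9 and CA12 (rows, ordered by role) in the 6 gated classes (columns, with the number of mice), colored by log2 of the mean CPM + 1 minus the mean of the 6 classes, from blue (lower) to red (higher). HK2, ADM and VEGFA are red in macrophages and monocytes and blue in T and NK cells, and SLC2A1 is pale in the immune classes and red in tumor cells.

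The classes were then compared within mice, with edgeR's quasi-likelihood test, the mouse as a block and Benjamini-Hochberg adjustment over all genes (threshold 0.05). Fold changes are log2 ± SE. Between macrophages and T cells, 30 of the 38 tested members were higher in macrophages and 4 were lower, where 39.4% of all 11814 tested genes were higher and 40% lower. The members' median was 1.001. The largest differences were those of ADM (5.57 ± 0.19), HK2 (4.55 ± 0.15), VEGFA (4.33 ± 0.16) and EPAS1 (4.01 ± 0.09). PFKFB4, which makes the activator of phosphofructokinase, was higher by 2.69 ± 0.11, HIF1A by 2.49 ± 0.07, BNIP3 by 2.30 ± 0.12 and NDRG1, a stress and differentiation gene, by 2.19 ± 0.11. The 4 that were lower in macrophages were all glycolytic enzymes: the aldolase ALDOC (-0.50 ± 0.16), the platelet phosphofructokinase PFKP (-0.48 ± 0.09), the mutase PGAM1 (-0.29 ± 0.07) and GAPDH (-0.14 ± 0.06). SLC2A1, the enolases ENO1 and ENO2, and LDHA did not pass, with differences of 0.26 ± 0.14, 0.09 ± 0.06, 0.35 ± 0.20 and -0.05 ± 0.05.

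Between macrophages and monocytes most of the called members were lower in macrophages. Of 38 members, 8 were higher in macrophages and 22 lower, beside 31.3% and 32.4% of all 10678 genes, with a members' median of -0.29. Both glucose transporters were lower in macrophages (SLC2A1 -0.43 ± 0.11, SLC2A3 -0.49 ± 0.05), as were 5 of 6 lower-glycolysis enzymes, led by PGAM1 (-0.65 ± 0.05), and all 3 lactate and pyruvate genes: LDHA (-0.47 ± 0.06), the pyruvate dehydrogenase kinase PDK1 (-0.26 ± 0.08) and the lactate exporter SLC16A3 (-0.31 ± 0.05). The largest decreases were those of PFKFB4 (-0.83 ± 0.10), VEGFA (-0.74 ± 0.07) and ALDOA (-0.73 ± 0.11). The 8 that were higher in macrophages were HIF1A (0.20 ± 0.06), EPAS1 (0.45 ± 0.09), BNIP3 (0.44 ± 0.10), its relative BNIP3L (0.16 ± 0.06), the collagen prolyl hydroxylase P4HA1 (0.17 ± 0.07), the sterol regulator INSIG2 (0.62 ± 0.08), the small HIF target ANKRD37 (0.51 ± 0.11) and the liver-type phosphofructokinase PFKL (0.28 ± 0.07). ADM did not differ detectably (0.11 ± 0.11). In reaction 1 by itself P4HA1 turned to -0.046, with an adjusted p of 0.615 in the edgeR test.

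Dendritic cells were compared with macrophages in the 9 mice that had both. Only PFKP (0.69 ± 0.14) and LDHA (0.38 ± 0.09) were higher in dendritic cells and 23 of 36 tested members were lower, beside 21.8% higher and 23.9% lower among all 9227 genes. ADM (-3.27 ± 0.36), HK2 (-2.82 ± 0.21), P4HA1 (-1.87 ± 0.15), the mitochondrial adenylate kinase AK4 (-1.65 ± 0.44), BNIP3 (-1.58 ± 0.21) and HIF1A (-1.53 ± 0.15) fell furthest, while GAPDH (-0.06 ± 0.08), the pyruvate kinase PKM (0.05 ± 0.10) and SLC2A1 (0.21 ± 0.30) did not pass. With reaction 1 by itself, which left 3 mice, 9 members passed, all lower in dendritic cells, beside 5.18% of all genes lower and 3.25% higher.

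NK cells stood below T cells in 11 of 26 tested members and above them in 2, beside 19.2% lower and 18.8% higher among all 8347 genes. The 2 were HIF1A (0.62 ± 0.07) and SLC16A3 (0.55 ± 0.11). BNIP3 (-0.96 ± 0.23), NDRG1 (-0.73 ± 0.16) and PGAM1 (-0.71 ± 0.09) were the furthest below. In reaction 1 by itself 7 members passed, 2 higher in NK cells and 5 lower, beside 7.66% and 7.32% of all genes.

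Tumor cells could be compared with macrophages in 5 mice, 4 of them from reaction 1. The median of all 9862 genes was -0.25 on the log2 scale in this comparison, and 15.3% of them were higher and 24.8% lower. Of 37 members, 14 were higher in tumor cells and 7 lower, with a median of 0.50. SLC2A1 led (2.52 ± 0.37), followed by AK4 (1.92 ± 0.44), BNIP3 (1.75 ± 0.30), the oxygen-sensing hydroxylase EGLN3 (1.74 ± 0.41), NDRG1 (1.70 ± 0.28), ENO2 (1.40 ± 0.48) and LDHA (1.18 ± 0.27). The NDRG1 values of the 5 mice were 357, 486, 747, 1124 and 1808 CPM, all above the highest macrophage value of 321. Lower in tumor cells were HIF1A (-1.88 ± 0.28), SLC2A3 (-1.81 ± 0.28), the phosphofructokinase regulator PFKFB3 (-1.80 ± 0.37), EPAS1 (-1.70 ± 0.42), HK2 (-1.57 ± 0.34), PFKL (-0.97 ± 0.42) and HK1 (-0.95 ± 0.35). ADM did not pass (0.38 ± 0.36), and its tumor cell values ran from 22.3 to 215 CPM.

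The question of which genes rose together in the same cells was asked within macrophages, the class with the most cells. Macrophages with at least 2000 UMIs were divided by whether they held an SLC2A1 UMI after each cell had been thinned at random to 2000 UMIs, so that depth did not decide the side. Of 5350 macrophages, 198 (3.70%) were on the positive side. Shares in the other classes were 4.07% in monocytes, 3.95% in dendritic cells, 3.68% in T cells, 4.24% in NK cells and 27.8% in tumor cells (27 of 97). Without thinning, the shares were 10.7% in macrophages, 13.7% in monocytes, 22.1% in dendritic cells, 12.4% in T cells, 16.1% in NK cells and 56.7% in tumor cells, whose depths differ. No class lacked the gene, so the part that RNA free in the suspension had in these shares was not tested. In 11 mice both sides held at least 10 cells, 180 with and 4329 without, with a median of 7510 UMIs per cell in all 198 positive cells and 8577.5 in the negative ones. All UMIs of these cells were then summed per side and mouse. SLC2A1 itself made the division and is not tested.

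Macrophages with an SLC2A1 UMI had higher levels of most other members. Of 37 tested members, 28 were higher and none was lower, while 4.1% of all 8900 genes were higher. DESeq2 called 30 higher and none lower, and no share of all genes is given for that fit. The members' median was 1.01, against -0.05 for all genes. The count was 17 of 37 in reaction 2 by itself (4 mice), beside 1.1% of all genes, and 19 of 35 with the gates' marker minimums doubled (7 mice), beside 1.4%. ADM had 85.1, 262 and 768 CPM (lowest, median and highest mouse) in cells with SLC2A1 and 33.2, 43.6 and 54.6 in cells without it, a log2 difference of 2.85 ± 0.22. The lowest mouse on the positive side was above the highest on the other. HK2 had 271, 826 and 1262 CPM against 133, 175 and 304, a difference of 2.04 ± 0.17 that was seen in 11 of 11 mice, although the lowest positive value was below the highest negative one.

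BNIP3 had 201, 262 and 407 CPM with SLC2A1 and 54.3, 77.4 and 114 without (1.86 ± 0.14), BNIP3L rose by 1.07 ± 0.13, and PDK1, which closes the way of pyruvate into the citrate cycle, rose by 1.81 ± 0.17. All 3 were higher in 11 of 11 mice. NDRG1 had 276, 560 and 1052 CPM against 118, 169 and 305 (1.80 ± 0.15), with some overlap between the sides, and AK4 rose by 1.78 ± 0.24.

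Not every glycolytic enzyme passed. In the upper part, 6 of 8 enzymes passed, from PFKP (0.87 ± 0.20) and TPI1, the triose phosphate isomerase (0.62 ± 0.12), to ALDOC (1.71 ± 0.37) and HK2. HK1 (0.15 ± 0.15) and PFKL (0.26 ± 0.16) did not. In the lower part 4 of 6 passed. ENO2, the enolase known from neurons, stood out with 17.5, 53.2 and 124 CPM against 5.18, 12.8 and 16.03 (2.38 ± 0.30), whereas its ubiquitous relative ENO1 rose by 0.62 ± 0.11. GAPDH had 1990, 3215 and 3962 CPM against 1453, 2239 and 2372, a difference of 0.72 ± 0.11 seen in 10 of 11 mice, and the kinase PGK1 rose by 0.70 ± 0.12. PGAM1 (0.34 ± 0.16) and PKM (0.29 ± 0.12) did not pass. LDHA rose by 0.81 ± 0.13, while the exporter SLC16A3 missed the threshold (0.44 ± 0.14, adjusted p = 0.0552 in the edgeR test). The other glucose transporter, SLC2A3, rose by 0.75 ± 0.14. Of the phosphofructokinase regulators PFKFB4 rose by 1.72 ± 0.22 and PFKFB3 did not pass (0.52 ± 0.16, adjusted p = 0.0521 in the edgeR test).

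Of the 7 members grouped as oxygen sensing and hydroxylases, 4 passed. The transcription factor mRNAs did not pass: HIF1A had 842, 1181 and 2759 CPM against 935, 1167 and 1702 (0.14 ± 0.12), and EPAS1 had a difference of -0.23 ± 0.21. The prolyl hydroxylase EGLN3 was higher by 1.51 ± 0.33, although in only 7 of 11 mice, and EGLN1 by 0.84 ± 0.16. The pathway itself induces both. The histone demethylase KDM3A was higher by 1.01 ± 0.23. P4HA1 had 372, 1023 and 1742 CPM against 185, 288 and 409 (1.67 ± 0.14), and P4HA2 did not pass (0.76 ± 0.28). The MYC antagonist MXI1 (2.05 ± 0.20), ANKRD37 (2.04 ± 0.23), the disulfide oxidase ERO1A (1.54 ± 0.17) and INSIG2 (1.30 ± 0.18) were all higher. VEGFA rose by 0.66 ± 0.14.

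**Figure D2:**
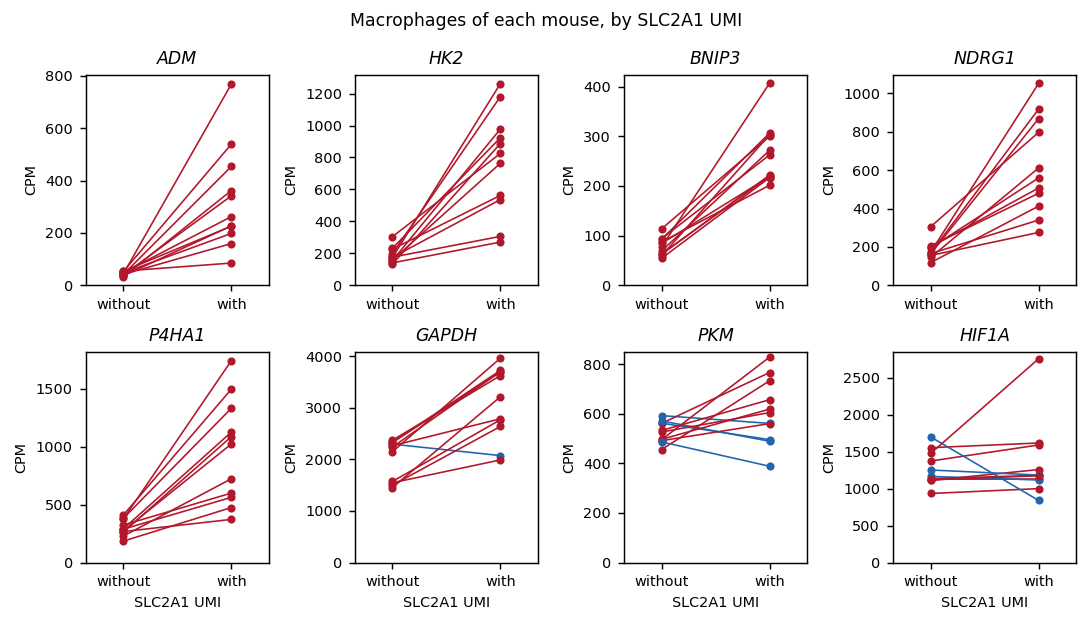
CPM of 8 members in macrophages without and with an SLC2A1 UMI, on linear axes. Each line joins the sides of 1 of 11 mice, red where the level was higher with SLC2A1 and blue where it was lower. ADM, HK2, BNIP3, NDRG1 and P4HA1 are higher in 11 of 11 mice, GAPDH in 10, HIF1A in 8 and PKM in 7.

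**Figure D3:**
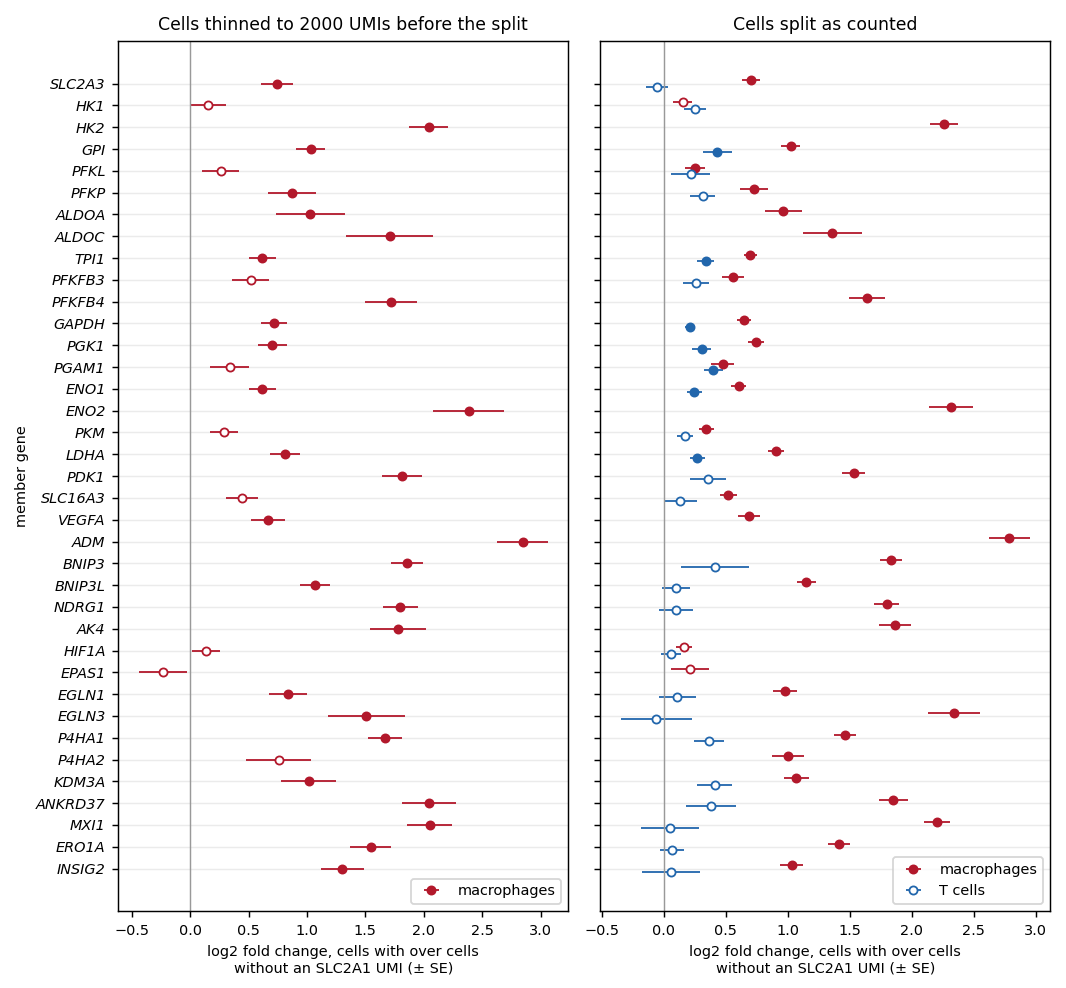
Log2 difference between cells with and without an SLC2A1 UMI for each tested member, with bars of 1 SE and filled points for those past the adjusted threshold. On the left macrophages were divided after thinning to 2000 UMIs, and on the right macrophages (red) and T cells (blue) were divided as counted. SLC2A1 is left out because it made the division. The 28 filled points on the left are all to the right of 0, with ADM at 2.85, and the T cell points on the right lie at or below 0.43.

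The macrophages were also divided in other ways. Dividing without thinning kept all 14 mice and called 34 of 37 members higher, beside 10.8% of all genes, although those positive cells were deeper (median 11116 against 8194 UMIs). With ADM in place of SLC2A1 the count was 31 of 36 beside 8.45%, and with BNIP3 it was 31 of 37 beside 5.25%. Leaving out SLC2A1, ADM and BNIP3, 23 of the 34 members tested under all 3 divisions were higher in each, beside 2.55% of 8861 genes tested in each. The divisions share their cells. Each cell thinned to 2000 UMIs was also read on a cell scale. In a joint thinning ADM was seen in 28.9% of 194 cells with SLC2A1 and 7.02% of those without, HK2 in 97 of the 194 and 20.3%, BNIP3 in 36.1% and 12.3%, and ENO2 in 10.8% and 2.29%. HIF1A was seen in 80.9% and 78.3%, and HK1 in 21.1% and 24.5%. Of SLC2A1, ADM, HK2, NDRG1, BNIP3, PDK1 and ANKRD37, 2593 macrophages held none after thinning and 1652 held 1. There were 674 with 2, 273 with 3, 103 with 4, 39 with 5, 13 with 6 and 3 with all 7. These 7 genes were not a list fixed beforehand, and those besides SLC2A1 had large differences in the same cells. The cells of all mice were pooled and no expected count was worked out, so these counts are a description only.

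Other genes of the low-oxygen response rose on the same side. Of 30 further pathway genes 22 were tested and 12 were higher, none lower, led by the lipid droplet protein HILPDA (2.63), the glycogen branching enzyme GBE1 (1.87), the chemokine receptor CXCR4 (1.66), the mitochondrial protein FAM162A (1.43) and the mTOR inhibitor DDIT4 (1.24). Of 20 genes of mitochondrial respiration none passed in the edgeR test, 3 had an unadjusted p below 0.05, and the list's median was -0.17. Summed over the 20 genes, the level was 1156, 1481 and 1821 CPM with SLC2A1 and 1516, 1816 and 2059 without, lower in 11 of 11 mice. Summed over the 39 members other than SLC2A1 it was 12176, 14970 and 20245 CPM against 8831, 9667 and 10082.

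Heat shock genes moved with the division as well. Of 10 heat shock and early response genes 9 were higher, from the collagen chaperone SERPINH1 (1.96) and the stress-induced HSPA6 (1.65) to JUN (0.65), and FOS was at -0.06. Their sum was 3106, 4874 and 8677 CPM with SLC2A1 against 2646, 2836 and 3449, higher in 11 of 11 mice. The tumors had been digested with enzymes at body temperature before sorting, and the part of the digestion in these values was not tested. None of the 5 tumor cell markers (KRT8, KRT18, KRT19, TM4SF1, CAV1) had enough counts for a test. Their sum was 0, 21.2 and 62.1 CPM with SLC2A1, from 39 UMIs, and 5.61, 10.4 and 22.5 without, higher in 8 of 11 mice, and none of the 5 was at 0 over all positive cells. With every cell that held a UMI of these markers left out, a choice made after seeing the data, 25 of 36 members were higher in the 8 remaining mice, beside 3.58% of all genes. Over all mice that division had 160 macrophages with SLC2A1 and 4721 without, against 198 and 5152 in the main one. Each came from its own random thinning. T cell markers summed to 0, 14.5 and 59.2 CPM with SLC2A1 and 8.53, 27.9 and 54.9 without. NK cell markers summed to 0, 14.5 and 82.6 CPM against 9.82, 26.9 and 45.7. Dendritic cell markers summed to 0, 0 and 23.3 CPM with SLC2A1 and 10.4, 16.7 and 27.8 without, higher in 0 of 11 mice. The 5 macrophage markers summed to 3910, 4893 and 7423 CPM with SLC2A1 and 5031, 6343 and 7021 without, lower in 10 of 11 mice, and C1QB among them was lower (-0.48). The 5 monocyte markers summed to 1464, 2357 and 3424 CPM against 1772, 2704 and 3521, and of them FCN1 (-1.65) was lower and VCAN (0.70) higher. The part of these markers in the members' differences was not tested.

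The pairing of members was also described across single macrophages, as Pearson correlations of count residuals within each mouse, averaged over 14 mice and 5350 cells. Cells of a mouse share a library and are not replicates, so these are descriptions without a test. The 703 pairs of 38 members had a median of 0.106, and 51.6% of them were above 0.1 and 22.9% above 0.2. Among all pairs of 13708 genes 0.713% were above 0.1 and 0.101% above 0.2. These were all genes with a UMI in at least 1% of the cells. They were not matched to the members in abundance, and its part in the contrast was not tested. Some of the highest pairs joined abundant enzymes and others joined targets, a grouping read by eye without clustering. Of the enzyme pairs, TPI1 with GAPDH had 0.575, GAPDH with LDHA 0.574 and GAPDH with ENO1 0.535. Of the target pairs, SLC2A1 with ADM had 0.458, HK2 with NDRG1 0.439 and ADM with MXI1 0.410. BNIP3 went with members of either kind, at 0.414 with GAPDH and 0.384 with SLC2A1. All the pairs named so far were positive in 14 of 14 mice. The kinds were not separate: GAPDH and LDHA were each above 0.1 with 27 of the 37 other members, and PGK1 with 30.

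Several members went less with the others. Among them were PFKL, ALDOA, PFKFB3, PGAM1 and P4HA2, with medians of 0.030, 0.045, 0.050, 0.058 and 0.067, although PGAM1 had 0.341 with GAPDH. HIF1A had a median of 0.016 with the other members, its best partner was SLC2A3 (0.248), and with GAPDH, PKM and ENO1 it was negative (-0.177, -0.157 and -0.155) in each of the 14 mice. HK1 reached no more than 0.068 and EPAS1 no more than 0.094 with any member. VEGFA went with PFKFB3 (0.228) and BNIP3L (0.226) rather than with the enzymes. Over all genes, those most like SLC2A1 were ADM (0.458), the lipid droplet coat gene PLIN2 (0.424), GPNMB (0.415), BNIP3 (0.384) and HK2 (0.372), so 3 of the 5 closest genes were members.

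**Figure D4:**
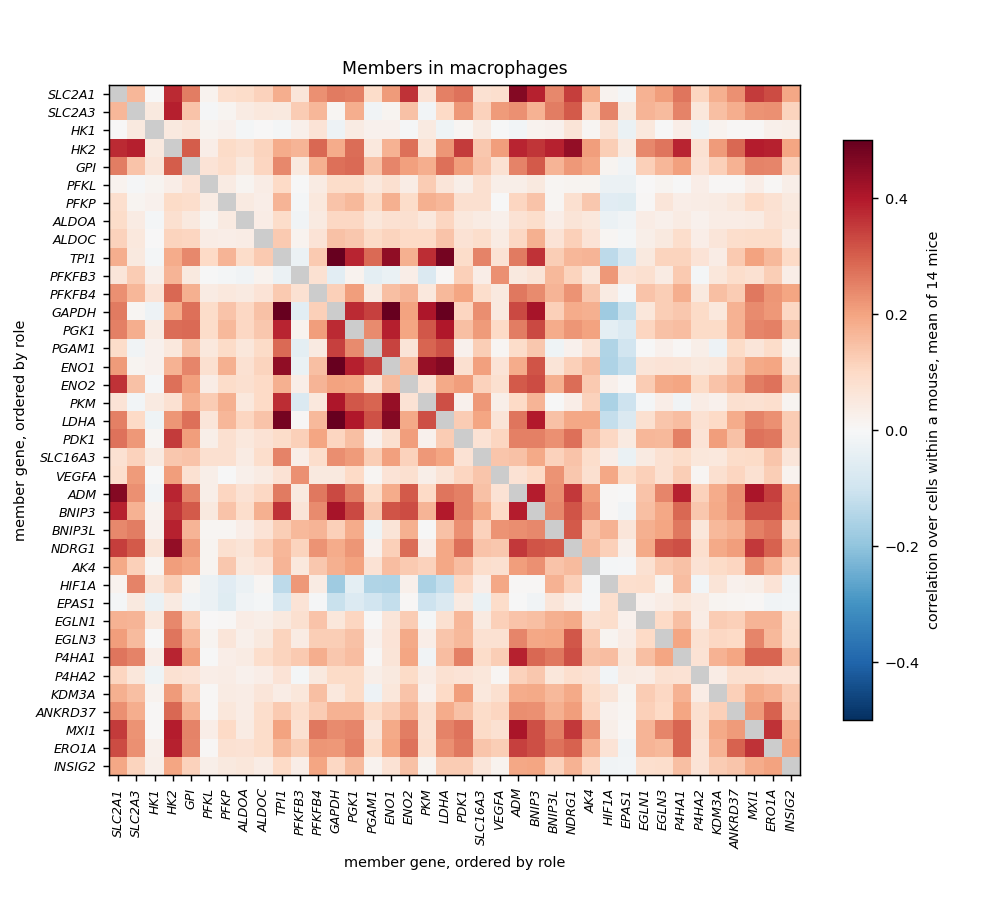
Mean within-mouse Pearson correlation of each pair of 38 members across 5350 macrophages, with members in the order of their roles on both axes, from blue (negative) to red (positive). TPI1, GAPDH, ENO1, PKM and LDHA are dark red with each other, SLC2A1, HK2, ADM, NDRG1 and MXI1 are red with each other, and HK1 and EPAS1 are pale throughout.

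Monocytes showed the pattern as far as their number allowed. Thinned, only 3 mice had 10 cells on both sides, with 37 cells on the positive one, and 9 of 35 members were higher, beside 0.599% of all genes. HK2 had 711, 963 and 1037 CPM in the 3 mice with SLC2A1 against 185, 211 and 238 without (2.17 ± 0.27). ADM (2.27 ± 0.39), BNIP3 (2.07 ± 0.35), PDK1 (2.04 ± 0.37), ERO1A (2.02 ± 0.28), MXI1, NDRG1, P4HA1 and the isomerase GPI also passed. Without thinning, which gave 13 mice, 22 of 30 were higher beside 6% of all genes. Monocytes resembled macrophages in their correlations too, with a median of 0.107 over the members' pairs.

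In T cells fewer members passed. The thinned division gave 4 mice with 68 positive cells, in which none of 26 members passed, beside 0% of all genes higher. As no gene but SLC2A1 was called higher, this fit cannot tell absent rises from undetected ones. Most of the 26 were above 0, with BNIP3 at 0.93 ± 0.65 and PDK1 at 0.70 ± 0.41. SLC2A3, PFKL, ENO1, NDRG1 and EGLN3 were below 0. In that edgeR test 3 members and 329 genes had an unadjusted p below 0.05, in either direction, and DESeq2 called no member either. Of the 3, TPI1 (0.38 ± 0.17) and PGK1 (0.47 ± 0.20) were higher with SLC2A1 and NDRG1 (-0.89 ± 0.35) was lower. Without thinning, in 10 mice, 7 of 27 passed, beside 2.51% of all genes. They were all enzymes, and the changes were small: GPI 0.43 ± 0.11, PGAM1 0.40 ± 0.07, TPI1 0.34 ± 0.07, PGK1 0.31 ± 0.08, LDHA 0.27 ± 0.06, ENO1 0.25 ± 0.06 and GAPDH 0.21 ± 0.04. MXI1 (0.05 ± 0.23), NDRG1 (0.10 ± 0.14), ERO1A (0.07 ± 0.10) and BNIP3 (0.41 ± 0.27) did not pass.

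The difference between the classes was tested directly, in the 10 mice with both, without thinning, as a term for class by side that was chosen after seeing the data. It was larger in macrophages for 23 of 37 members and smaller for none, beside 4.52% of all 9847 genes. The low-count filter let a gene enter through macrophages alone, and fewer members were tested in the T cell division. For members rare in T cells the T cell side is therefore poorly measured. ENO2 and ANKRD37 had too few counts for a test in the thinned T cell division, and EGLN3 was at -1.20 ± 0.68 there. EGLN3 (2.51 ± 0.42), MXI1 (2.18 ± 0.27), ENO2 (1.84 ± 0.34), NDRG1 (1.69 ± 0.17), ANKRD37 (1.59 ± 0.22), BNIP3 (1.54 ± 0.27) and ERO1A (1.36 ± 0.16) differed most, and LDHA (0.68 ± 0.10) and GAPDH (0.47 ± 0.08) differed too. PGAM1 (0.18 ± 0.14), PKM (0.23 ± 0.10) and HIF1A (0.21 ± 0.12) did not pass, and ADM (1.63 ± 0.98) was too rare in T cells to say. Reaction 1 by itself, with 4 mice, left 2 members, beside 0.391% of all genes, and reaction 2, with 6 mice, left 14, beside 0.771%. Across T cells the median correlation over the members' pairs was lower than in macrophages as well, at 0.0417. It was still above the median of all gene pairs in T cells, which was -0.0011. Of all those gene pairs 0.552% were above 0.1, and the genes were again not matched to the members in abundance. Of the 666 pairs of 37 members in T cells, 15.9% were above 0.1. The closest pairs were TPI1 with GAPDH (0.605) and GAPDH with LDHA (0.550), which had 0.575 and 0.574 in macrophages. HK2, ADM and BNIP3, among others, were rarer in T cells, and the part of that in the median was not tested. The cells divided without thinning had a median depth of 11116 UMIs with SLC2A1 and 8194 without in macrophages, and of 8432.5 and 6352.5 in T cells.

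Maraviroc was compared with no treatment in each class, with the reaction as a covariate. No member passed in any of the 5 immune classes by edgeR or by DESeq2. With every gene of at least 1 count tested, edgeR called HK2 in monocytes and SLC2A3 in T cells. No share of all genes is given for these fits, so the calls are not read as a treatment result. In macrophages 0 of 38 passed, beside 0% of all 11858 genes, with 3 members and 403 genes at an unadjusted p below 0.05. In monocytes it was 0 of 38 beside 0% of 9177, with 3 members and 388 genes. In T cells it was 0 of 35 beside 0% of 10320, with 2 members and 611 genes, and in NK cells 0 of 25 beside 0% of 7622, with 3 members and 251 genes. In dendritic cells, with 4 untreated and 5 maraviroc mice, it was 0 of 24 beside 0.0193% of 5173, with 1 member and 428 genes. The members' median log2 difference was 0.04 in macrophages, 0.03 in monocytes, -0.20 in dendritic cells, -0.07 in T cells and -0.03 in NK cells. It took different signs in the reactions fitted by themselves, -0.03 and 0.11 in macrophages, -0.05 and 0.13 in monocytes and -0.17 and 0.10 in T cells, and the same sign in NK cells (-0.04 and -0.05). In macrophages 17 of 38 members were above 0 in reaction 1 and 31 of 38 in reaction 2. The difference between the reactions was not tested for these medians.

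In macrophages SLC2A1 had 13.8, 18.6 and 29.3 CPM (lowest, median and highest) in untreated mice and 14.6, 17.9 and 26.6 in maraviroc mice. ADM had 41.9, 50.1 and 75.8 CPM against 42.1, 55.0 and 73.0. The groups overlapped for both genes, as for each tested member in macrophages, monocytes, T cells and NK cells, where 0.0506%, 0.0654%, 0.0969% and 0.0262% of all tested genes did not overlap.

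Of the members closest to a difference, HK2 had 148, 180 and 267 CPM in macrophages of untreated mice and 190, 228 and 321 in those of maraviroc mice, 0.30 ± 0.12 by the model with an unadjusted p of 0.0263 and an adjusted p of 0.9997 (edgeR). PFKFB4 (0.26 ± 0.10) and P4HA1 (0.24 ± 0.10) were the others in macrophages. HK2 (0.40 ± 0.16), P4HA1 (0.30 ± 0.12) and EGLN1 (0.23 ± 0.10) were those in monocytes. In T cells SLC2A3 had 249, 411 and 611 CPM without and 473, 606 and 842 with maraviroc (0.59 ± 0.17, unadjusted p 0.00306, adjusted p 0.808 by edgeR), and P4HA2 had -0.73 ± 0.29. In NK cells they were PFKL (0.45 ± 0.17), PDK1 (0.55 ± 0.24) and INSIG2 (-0.63 ± 0.23).

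SLC16A3, the lactate exporter, was the only member whose groups did not overlap, in dendritic cells. The overlap was read from CPM without regard to the reaction. Reaction 1 gave untreated mice 3 and 4 but only maraviroc mouse 3 (10 cells), and the other mice were from reaction 2. The 4 untreated mice had 106, 106, 108 and 122 CPM and the 5 maraviroc mice 47.1, 56.4, 60.4, 80.5 and 81.4, a difference of -0.67 ± 0.23 with an unadjusted p of 0.0126 and an adjusted p of 0.544 in the edgeR test. Of the 24 tested members it was 1, and 2.49% of all 5173 tested genes did not overlap either. It rested on 10 to 34 cells per mouse. Markers of other cells moved with it. The 5 macrophage markers summed to 657, 950 and 1054 CPM (lowest, median and highest) in dendritic cells of untreated mice and 228, 341 and 717 in those of maraviroc mice. The 5 monocyte markers summed to 679, 1094 and 1524 CPM against 187, 409 and 992, and the 6 dendritic cell markers to 633, 643 and 809 against 720, 765 and 918. None of these markers was at 0 over all dendritic cells. MRC1 (-1.20, unadjusted p 0.0150) and LAMP3 (1.05, unadjusted p 0.0234) had unadjusted p below 0.05 in the edgeR test, and neither passed after adjustment. The part of these markers in the SLC16A3 values was not tested.

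**Figure D5:**
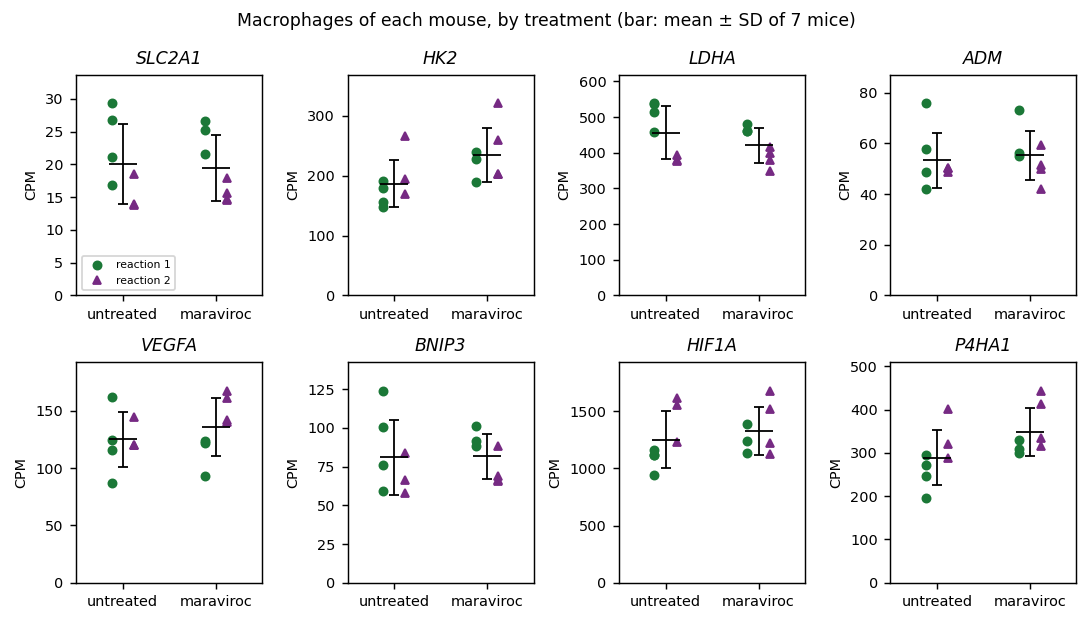
CPM of 8 members in macrophages of untreated and maraviroc mice, 7 each, with circles for reaction 1, triangles for reaction 2, and a bar at the mean ± SD. The groups overlap in each panel, for example 148 to 267 CPM against 190 to 321 for HK2.

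The share of macrophages with an SLC2A1 UMI did not separate the treatments. It was 3.54% ± 1.63 (SD, n = 7) in untreated mice, from 1.72% to 6.46%, and 3.79% ± 0.46 in maraviroc mice, from 3.16% to 4.41%. The mean difference within reactions was 0.446 percentage points (two-sided exact permutation test within reactions over 1225 regroupings, p = 0.432). By reaction, in reaction 1 the difference was -0.499 points, and in reaction 2 it was 1.39 points, with 2.02%, 2.89% and 1.72% in the 3 untreated mice and 3.82%, 3.74%, 3.68% and 3.16% in the 4 maraviroc mice. The sign in reaction 1 was not stable: it was 0.357 points without thinning, 1.88 thinned to 4000 UMIs, 1.90 with marker minimums doubled and 0.272 with another hashtag threshold, and reaction 2 gave 1.72, 1.10, 0.058 and 0.765. For the members' levels in macrophages, the test of a treatment difference between reactions called 0 of 38, beside 0% of 12656 genes, with 2 members (ANKRD37 and PFKFB3) and 997 genes at an unadjusted p below 0.05 in edgeR, and DESeq2 called no member.

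The members' levels were also set side by side between the reactions. In macrophages GAPDH had 2214, 2289 and 2403 CPM in the mice of reaction 1 and 1500, 1568 and 1781 in those of reaction 2. LDHA had 458, 481 and 538 against 348, 379 and 416, and TPI1 487, 525 and 596 against 389, 415 and 446. These 3 did not overlap between the reactions, and the other 35 tested members did. Of all 11858 tested genes 5.84% did not overlap either, so the members' count was near the share of all genes. Macrophage depth differed with them, at a median of 3469 UMIs per cell in reaction 1 and 12826 in reaction 2, and its part in the levels was not tested.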

How the data were processed

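Single-cell 3' libraries and hashtag libraries of 2 reactions were deposited by the authors as raw UMI counts without normalization, from Cell Ranger 9.0.1 with the human build GRCh38. The submitters' processing notes also name Seurat 5.1.0. The sample labels give the organism as mouse, while all genes are human, and they do not give the treatment, which was read from the hashtag names. Genes are named as in the files, and no sequence is printed because no human reference was used here.

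HTODemux (Seurat 5.3.0, R 4.3.3, positive quantile 0.99) assigned cells to mice. Hashtag doublets were removed, and doublets within a mouse were not searched for. The part of such doublets in which genes rose together was not tested. Singlets with above 600 and up to 6000 genes and under 12.5% mitochondrial counts were kept (11917 and 7954). Classes were gated on at least 3 UMIs of a marker list and a minimum share of the cell's UMIs, with ceilings for other lineages. These minimums were set after seeing the markers' distributions. The class names stand for these gates.

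Counts summed per mouse and class were tested with edgeR 4.0.16 (TMM, filterByExpr, quasi-likelihood, Benjamini-Hochberg over all genes at 0.05). SEs are the log2 difference divided by the square root of F. Treatment was adjusted for reaction, and classes and sides of the SLC2A1 division were compared with the mouse as a block. The count model was also run on simulated counts, whose outcome is not reported here. Alternatives were DESeq2 1.42.0, all genes, other filters, gates, quantile and thinning (4000 UMIs), each reaction by itself, no reaction term and each mouse left out. The 40 genes and the other lists were chosen with earlier results of these data known. All 40 genes were eligible to be named, by largest and smallest changes per role. Mice may share donors, so p-values measure the spread between these mice. Sums of a class cover counting error and animal spread together.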

Additional observations from a re-analysis of the deposited data

Results flagged for a closer look

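Within groups of 7 mice, 78 groups of macrophage levels were checked for a mouse far from the others, and 6 held one, where chance gives about 1 in 20. Maraviroc mouse 4 of reaction 2 gave 3 of them: NDRG1 was at 321 CPM (the others 164 to 217), EGLN3 at 54.6 (14.9 to 23.5) and EGLN1 at 83.1 (59.8 to 67.0). Untreated mouse 1 of reaction 2 had HK2 at 267 CPM, above the 148 to 195 of the other untreated mice. Untreated mouse 2 of reaction 1 had ALDOC at 15.4 CPM, above 4.90 to 7.70. Maraviroc mouse 2 of reaction 1 had SLC16A3 at 148 CPM, below 174 to 187. The difference of the SLC2A1 division between macrophages and T cells passed the test for 23 members, some of them rare in T cells.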

How the results depend on the processing

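Of the recomputed values, 130 stayed and 14 moved. A count of members past the threshold stayed if it was within 1.5 times the reported count, or if 0 remained 0. The 130 also hold alternatives of the test of the share with an SLC2A1 UMI, which kept their sign and a permutation p above 0.05. The 14 were as follows. With every gene of at least 1 count tested, treatment called 1 member in monocytes (HK2) and 1 in T cells (SLC2A3), and reaction by treatment called 1 (ANKRD37). Reaction 1 by itself gave 9 for dendritic cells against macrophages and 7 for NK against T cells. Reaction 2 by itself gave 17 for the SLC2A1 division of macrophages, in 4 mice. The monocyte division gave 22 without thinning (beside 6% of all genes), 23 thinned to 4000 UMIs, 18 by ADM and 24 by BNIP3. The T cell division gave 7 without thinning (beside 2.51%). For the monocyte divisions at 4000 UMIs, by ADM and by BNIP3 no share of all genes is given, so these counts show only a move. The same holds for the single members called with every gene of at least 1 count tested. The difference of the SLC2A1 division between macrophages and T cells gave 14 thinned to 4000 UMIs (beside 134 of all 9850 genes higher), 2 in reaction 1 and 14 in reaction 2. Leaving out each mouse in turn gave 27 to 29 of 36 or 37 members in the macrophage division, all higher. Beside them 266 to 353 genes were higher, of 8873 to 9850 tested. For treatment in macrophages it gave 0 to 0 of 38 members, beside 0 genes called. Of named members, 1178 values kept their side of the threshold, 105 lost it and 1 reversed (P4HA1, macrophages against monocytes in reaction 1, -0.046). Over all genes, the macrophage division called 502, but 1521 without thinning, 1156 at 4000 UMIs, 1240 by ADM, 135 with marker minimums doubled and 182 in reaction 2, and treatment in dendritic cells called 1, but 161 with all genes tested and 11 by DESeq2. The cause of these changes was not tested. Not run, because fewer than 3 mice qualified, were the dendritic cell division, single-reaction divisions of monocytes and of T cells in reaction 1, the ADM division of T cells, doubled minimums in both and tumor cells in reaction 2. Dendritic treatment in reaction 1 was not run because fewer than 2 maraviroc mice had at least 10 dendritic cells. No paired analysis was possible because untreated and maraviroc mice share no number, and the class and SLC2A1 comparisons already had the mouse as a block. CA9 and CA12 had few UMIs, and the macrophage division rested on 180 positive cells.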

Other observations

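Outside the listed genes, the macrophages with an SLC2A1 UMI differed in lipid and lineage genes, which were picked here after their values were seen. By the same edgeR test, genes higher on that side included SLAMF9 (log2 difference 2.88), the semaphorin SEMA3C (2.19), the activin subunit INHBA (2.10), the lipid droplet coat gene PLIN2 (1.90), GPNMB (1.87), the fatty acid desaturase SCD (1.76), the fructose transporter SLC2A5 (1.76), the antisense transcript HIF1A-AS3 (1.72) and the macrophage growth factor CSF1 (1.66). Genes lower on that side included LYVE1 (-2.74) and CD5L (-2.61), both known from tissue-resident macrophages, the metalloreductase STEAP4 (-2.49) and the inhibitory receptor SIGLEC10 (-1.47). Without thinning, each of these kept its sign.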
